A study of Mus musculus with 9 samples.

Results

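Interleukin-12 and interleukin-18 are cytokines that drive type 1 immunity, and 9 genes of their signalling axis were described across 9 libraries of mouse ear skin. The genes were taken by name from a table of 25124 genes, and all 9 were found. They are Il12b, the shared p40 subunit of interleukin-12 and interleukin-23, the interleukin-12 receptor chains Il12rb1 and Il12rb2, the interleukin-18 receptor chains Il18r1 and Il18rap, the kinase gene Txk, the transcription factor genes Stat4 and Tbx21, and Ifng, which encodes interferon gamma. All 9 libraries came from whole ear skin of C57BL/6 mice whose ears were swabbed with Staphylococcus epidermidis strain LM087, a skin commensal, on alternate days, and the tissue was taken on day 8. The mice of 5 libraries had only the bacterium. Those of the other 4 libraries were also given anti-CTLA-4, an antibody that blocks CTLA-4, an inhibitory receptor of T cells. Antibody dose, schedule, isotype control, and the age and sex of the mice are not given in the labels. Both groups share the bacterial exposure, and skin with neither treatment, or with the antibody but no bacterium, was not analysed here. Nothing in the labels says that the numbered libraries are from separate mice, so p-values refer to the spread between libraries, part of which may be technical.

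Interleukin-12 is made mainly by dendritic cells and macrophages and binds a receptor built from both Il12rb chains on T cells and natural killer cells. The receptor activates STAT4, which with T-bet, the product of Tbx21, switches on Ifng. Interleukin-18 is released by many cells, keratinocytes among them, and signals through a binding chain encoded by Il18r1 and an accessory chain encoded by Il18rap. Together the cytokines induce interferon gamma in lymphocytes. Txk, a Tec-family kinase expressed in T cells and natural killer cells, has been linked to Ifng transcription. Interferon gamma then acts on most skin cells and raises antigen presentation and chemokine genes.

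The deposited values are TPM, a measure of transcript abundance that scales reads by gene length and library total. Here the length was the whole span of a gene, introns included, and the values could be turned back into whole reads, between 10213795 and 13868832 per library over the listed genes. These recovered reads, scaled to the read total of a library, are called recovered RPM below. Group means are given ± SD over 5 libraries of the bacterium alone and 4 with anti-CTLA-4, and log2 fold changes ± SE. A level below is therefore reads per base of span, and the order of 2 genes with different intron content is only a rough order of their transcripts. Whole skin holds many cell types. In such bulk tissue, a change in the number of cells of a type and a change in RNA per cell cannot be told apart. The T cell gene list (13 genes, all tested) summed to 34.2 to 44.0 TPM with the bacterium alone and 73.5 to 94.9 TPM with anti-CTLA-4, and 10 of the 13 rose, 1 of which, Cd6, passed the expression filter given below only through the antibody libraries. Keratinocyte genes summed to 22270 to 27774 TPM with the bacterium alone and 19820 to 23307 TPM with anti-CTLA-4, overlapping ranges, and of the 8 tested Krt1 rose and Perp fell.

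Of the 9 genes, Stat4, Il18r1 and Il18rap rose with anti-CTLA-4 in the fit across all genes and none fell. A change was called at a limma adjusted p under 0.05 (Benjamini-Hochberg over 15704 genes that reached 1 TPM in 4 or more libraries), and by this rule 7.16% of all tested genes rose and 4.48% fell. Il12rb1, Il12rb2 and Ifng were tested and not called, and Tbx21, Txk and Il12b lay below the expression filter. Stat4 passed the filter only through the 4 antibody libraries. Ifng passed it through 3 antibody libraries and replicate 5 of the bacterium alone. For 4 genes (Tbx21, Stat4, Il18r1 and Il18rap) every anti-CTLA-4 library lay above every library of the bacterium alone. Of all genes past the filter, 8.02% had groups that did not overlap in that direction, and of genes below the filter 1.89%. With skeletal muscle genes as a covariate, 1 of all tested genes was called and none of the 9. The muscle genes summed to 1547 to 2406 TPM with the bacterium alone and 1358 to 1897 TPM with anti-CTLA-4, overlapping ranges, and their part in the calls was not tested further. The log2 fold change was then 0.71 ± 0.16 for Stat4 (limma adjusted p = 0.112), 1.01 ± 0.19 for Il18r1 (limma adjusted p = 0.0908) and 1.12 ± 0.36 for Il18rap (limma adjusted p = 0.191), against 0.79 ± 0.11, 1.26 ± 0.15 and 1.48 ± 0.25 without the covariate. With T cell genes as a covariate limma called no gene (443 of all tested genes were at an unadjusted p under 0.05).

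**Figure D1:**
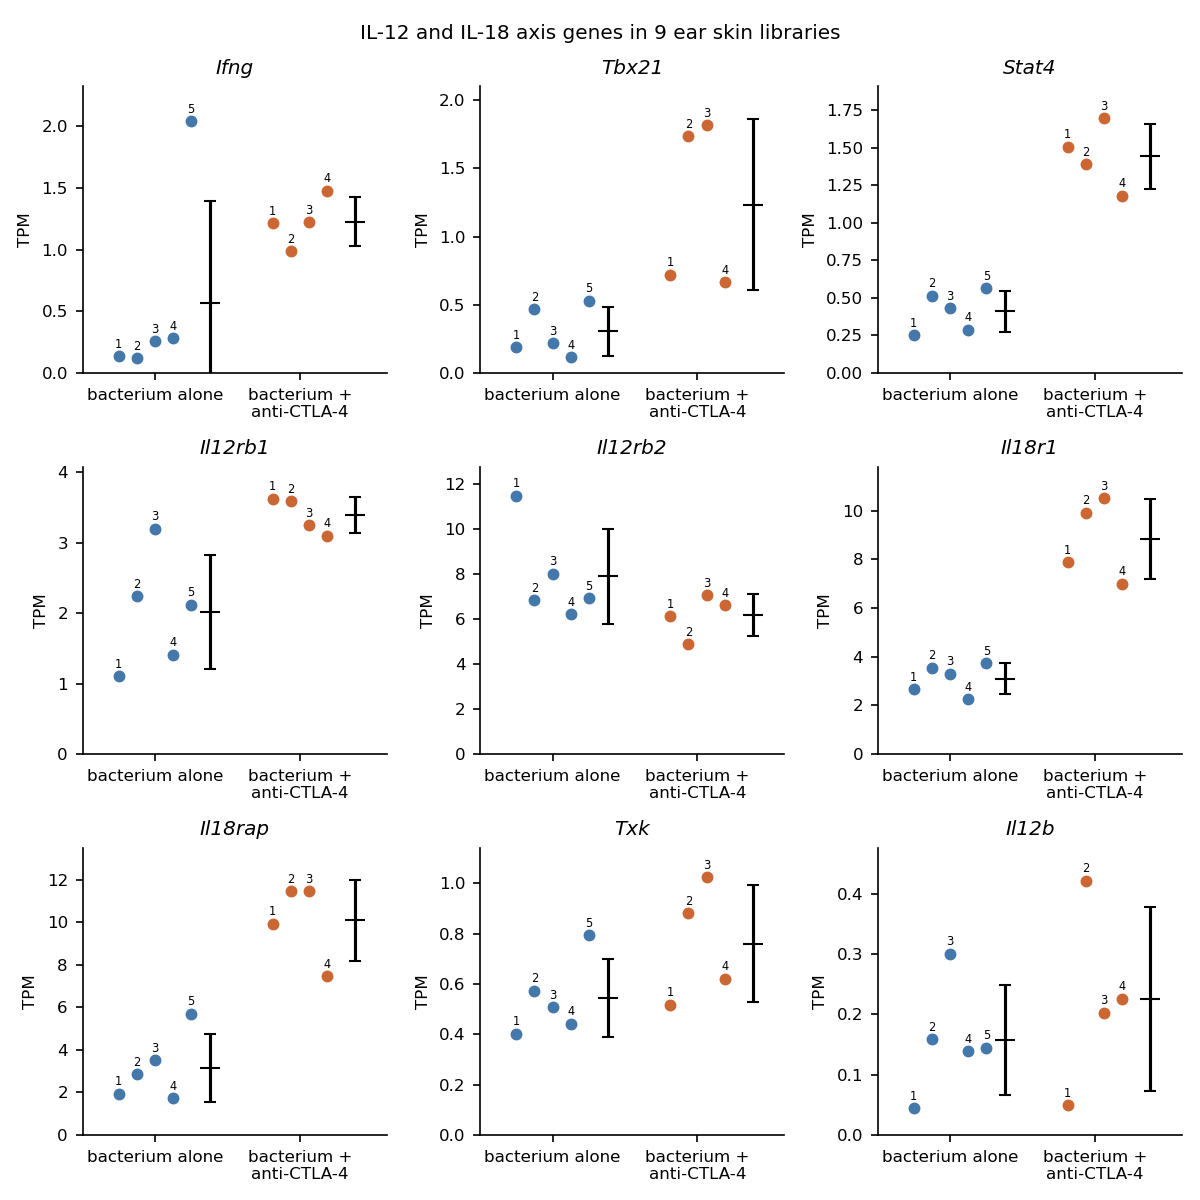
TPM of the 9 genes in each library, with the bacterium alone in blue and with anti-CTLA-4 in orange; numbers mark the replicates and bars the mean ± SD (n = 5 and n = 4). Stat4, Tbx21, Il18r1 and Il18rap separate into groups that do not overlap, while Ifng holds 1 high library of the bacterium alone, replicate 5, at 2.04 TPM.

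To place these genes in the genome, the 250 bases before the transcription start are shown for the 3 genes that rose and for Ifng, the product of the axis, from RefSeq promoters on GRCm38.p6 (plus strand, 5′ to 3′). Il18r1 and Il18rap are neighbours on chromosome 1, both on the plus strand, with 14507 bases between the end of the first and the start of the second. The windows are chr10:118440796-118441045 for Ifng, chr1:52007990-52008239 for Stat4, chr1:40465756-40466005 for Il18r1 and chr1:40515112-40515361 for Il18rap, and each ends just before the start that the deposited table uses. Capitals mark letters that match a searched motif.
Ifng: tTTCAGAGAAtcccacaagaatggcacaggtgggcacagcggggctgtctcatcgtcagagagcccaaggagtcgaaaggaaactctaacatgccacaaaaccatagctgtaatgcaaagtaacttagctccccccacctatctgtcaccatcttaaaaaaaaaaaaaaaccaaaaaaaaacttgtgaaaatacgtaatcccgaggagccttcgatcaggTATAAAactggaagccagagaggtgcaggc
Stat4: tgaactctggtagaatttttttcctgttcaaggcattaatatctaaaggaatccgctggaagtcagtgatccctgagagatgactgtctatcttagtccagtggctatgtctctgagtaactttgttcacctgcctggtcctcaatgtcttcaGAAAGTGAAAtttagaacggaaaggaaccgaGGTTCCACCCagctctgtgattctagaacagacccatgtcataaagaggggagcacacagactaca
Il18r1: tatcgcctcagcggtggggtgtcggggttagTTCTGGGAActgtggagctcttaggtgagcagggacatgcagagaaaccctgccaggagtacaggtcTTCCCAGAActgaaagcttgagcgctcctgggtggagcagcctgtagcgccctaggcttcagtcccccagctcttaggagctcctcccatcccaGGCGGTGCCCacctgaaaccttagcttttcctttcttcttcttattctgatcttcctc
Il18rap: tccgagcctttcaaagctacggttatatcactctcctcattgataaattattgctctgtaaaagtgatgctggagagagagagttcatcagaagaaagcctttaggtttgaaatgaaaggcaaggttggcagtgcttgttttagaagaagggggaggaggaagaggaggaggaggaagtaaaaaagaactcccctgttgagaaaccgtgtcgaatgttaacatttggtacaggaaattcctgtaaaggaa

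Motifs were searched on both strands of RefSeq promoter windows of 300 bases, from 250 before to 50 after the start. They were a STAT element of the GAS type (TTCNNNGAA), a T-box element (GGTGTGA), an NF-kappaB element (GGG and CC with any 5 bases between), an interferon response core (GAAA and GAAA with any 2 bases between) and the TATA box (TATAAA). The Ifng window held a GAS-type match at -249 and a TATA box at -30. The window of Stat4 held an interferon response core at -97 and an NF-kappaB match at -66. Il18r1 held GAS-type matches at -219 and -152 and an NF-kappaB match at -58, and the window of Il18rap held none of them. RefSeq gives 2 further windows for Il18r1 and 1 for Stat4, at other starts, and none of these held a match. Over all 32851 windows, 8.30% held the GAS-type element, 3.98% the T-box element, 50.8% the NF-kappaB element, 3.44% the interferon response core and 13.6% the TATA box. These are matches of letters only. Promoter windows were matched for 8 of the 9 genes, all but Il12rb1, 12 windows in all.

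Il12b, the only gene of the 9 for a subunit of interleukin-12 or interleukin-18, was at the edge of detection. Its TPM values were 0.045, 0.159, 0.301, 0.139 and 0.145 with the bacterium alone and 0.050, 0.422, 0.203 and 0.226 with anti-CTLA-4. These values stand for 18 reads in the first group and 21 in the second, between 1 and 9 per library, and the groups overlapped. The exact two-sided permutation test (126 ways to divide the 9 libraries) gave p = 0.460. As a gauge of background, 1125 odorant receptor genes of the table had a median level of 0 TPM, and 90% of them had at most 0.0799 TPM. The gauge is rough, since their spans were not matched to that of Il12b and 1 read is worth more TPM in a shorter gene. Il12b spans chromosome 11, 44400063 to 44414677, on the plus strand (mm10).

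Of 9 other genes for ligands, their processing and their antagonists, 7 passed the filter and 3 rose: Ebi3, Casp1 and Il27. Ebi3, a partner chain of interleukin-27, rose from 2.03 ± 0.403 to 3.77 ± 0.680 TPM (log2 fold change 0.65 ± 0.13, limma adjusted p = 0.0127). Il27, the other chain of that cytokine, rose from 1.37 ± 0.513 to 2.71 ± 0.506 TPM (limma adjusted p = 0.0373), a call that held in only 2 of the 9 fits that each left out a library. Casp1, the protease that matures interleukin-18, rose from 5.99 ± 1.51 to 10.4 ± 1.14 TPM (limma adjusted p = 0.0227), and its call was lost without anti-CTLA-4 replicate 3 or 4. Il18 itself was 12.3 ± 2.60 and 9.81 ± 2.84 TPM (limma adjusted p = 0.319). The inhibitory receptor gene Sigirr was 9.76 ± 0.804 and 7.91 ± 1.45 TPM (limma adjusted p = 0.137). Il12a, the p35 subunit of interleukin-12, lay below the filter with 13 and 19 reads in all. It had 0.238 ± 0.0886 TPM with the bacterium alone and 0.421 ± 0.0543 TPM with anti-CTLA-4, and the groups did not overlap, with a highest value of 0.381 TPM in the first and a lowest of 0.384 TPM in the second (exact permutation p = 0.0159). The median log2 fold change of the 7 tested genes was 0.21, against -0.014 over all tested genes.

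Neither interleukin-12 receptor chain was called on TPM, but their ratio fell with anti-CTLA-4. Il12rb1, which is also the shared chain of the interleukin-23 receptor, had 1.11, 2.24, 3.20, 1.41 and 2.12 TPM with the bacterium alone and 3.63, 3.59, 3.25 and 3.10 TPM with anti-CTLA-4. Replicate 3 of the bacterium alone reached the antibody range and the other 4 lay below it. The means were 2.02 ± 0.815 and 3.39 ± 0.257 TPM, a difference of 0.58 ± 0.18 on the log2 scale (limma adjusted p = 0.0701). On recovered RPM the log2 fold change was 0.86 ± 0.26 and the limma adjusted p 0.0357, and on TPM without replicate 3 of the bacterium alone the adjusted p was 0.0194. In the other 8 fits on TPM that each left out a library Il12rb1 was not called (limma adjusted p up to 0.144). The gene spans chromosome 8, 70808449 to 70821423, on the plus strand.

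Il12rb2, the chain through which STAT4 is recruited, had 11.5, 6.83, 8.02, 6.24 and 6.93 TPM with the bacterium alone and 6.14, 4.88, 7.08 and 6.63 TPM with anti-CTLA-4. The groups overlapped, and replicate 1 of the bacterium alone was the highest library. The means were 7.90 ± 2.11 and 6.18 ± 0.950 TPM, a log2 difference of -0.29 ± 0.16 (limma adjusted p = 0.290). This was the most abundant of the 9 genes with the bacterium alone, but its span needs care. The deposited span of Il12rb2 (chromosome 6, 67292018 to 67339694, minus strand) is 47676 bases, of which 1900, or 3.99%, are exonic in GENCODE M21, and it stops short of the RefSeq start at 67376188. It also overlaps 5719 bases of GENCODE's Serbp1, an abundant gene on the opposite strand, and reads appear to have been counted without regard to strand. Serbp1 was 126.8 ± 5.19 and 132.0 ± 12.9 TPM, and its within-group correlation with Il12rb2 was 0.05 over 9 libraries. The part of Serbp1 reads in the level of Il12rb2 was not tested.

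The ratio of Il12rb2 to Il12rb1 was 10.4, 3.05, 2.51, 4.41 and 3.27 with the bacterium alone and 1.69, 1.36, 2.18 and 2.14 with anti-CTLA-4. The 2 groups did not overlap, and replicate 1 of the bacterium alone stood far above the other libraries. On the log2 scale the ratio was lower with anti-CTLA-4 by a difference of -1.18 (exact two-sided permutation p = 0.0159, 1 of 2 chain ratios computed). Leaving out any 1 antibody library gave an exact permutation p of 0.0536. The span and overlap of Il12rb2 touch this ratio too.

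Both interleukin-18 receptor chains rose, Il18r1 to 2.85 times and Il18rap to 3.20 times the mean of the bacterium alone. Il18r1, the binding chain, had 2.66, 3.55, 3.30, 2.24 and 3.75 TPM with the bacterium alone and 7.89, 9.92, 10.5 and 7.004 TPM with anti-CTLA-4. The lowest antibody library was 7.004 TPM and the highest of the other group 3.75 TPM. The log2 fold change was 1.26 ± 0.15 (limma adjusted p = 0.00235). On recovered RPM it was 1.55 ± 0.17 (limma adjusted p = 0.000157), since the added pseudocount of 1 TPM flattens low genes. Il18r1 spans chromosome 1, 40466006 to 40500854, and was covered by 115 to 213 reads per library with the bacterium alone and 374 to 617 with anti-CTLA-4.

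Il18rap, the accessory chain, had 1.94, 2.86, 3.51, 1.72 and 5.71 TPM with the bacterium alone and 9.93, 11.5, 11.5 and 7.47 TPM with anti-CTLA-4. Replicate 5 came nearest to the antibody group, and the groups did not overlap. The log2 fold change was 1.48 ± 0.25 (limma adjusted p = 0.00744), and 1.83 ± 0.30 on recovered RPM (limma adjusted p = 0.00127). It spans chromosome 1, 40515362 to 40551705. With hair follicle genes as a covariate the log2 fold change of Il18rap was 1.78 ± 0.38, with a larger SE, and the call was lost (limma adjusted p = 0.0709). Hair follicle genes summed to 41.3 to 63.6 TPM with the bacterium alone and 27.0 to 36.8 TPM with anti-CTLA-4, and 4 of the 8 tested fell (Krt73, Msx2, Hoxc13 and Foxn1). The covariate, their mean log2(TPM + 1), was 1.26 to 1.75 and 0.990 to 1.31, overlapping ranges. The part of hair follicle genes in the result was not tested further.

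The ratio of Il18rap to Il18r1 was 0.978 ± 0.332 with the bacterium alone and 1.14 ± 0.0858 with anti-CTLA-4 (exact two-sided permutation p = 0.230 on the log2 ratio). In replicate 5 of the bacterium alone it was 1.52, the highest of all 9 libraries. Without that library the log2 ratio was higher with anti-CTLA-4 by 0.46 (exact permutation p = 0.0286, the smallest that 4 against 4 libraries can give), so the comparison of the 2 chains turns on 1 library.

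Stat4, the transcription factor activated by the interleukin-12 receptor, had 0.250, 0.516, 0.432, 0.288 and 0.563 TPM with the bacterium alone and 1.51, 1.39, 1.70 and 1.18 TPM with anti-CTLA-4. Every antibody library was above 1 TPM and every other library below it. The mean was 3.52 times as high. The log2 fold change was 0.79 ± 0.11 (limma adjusted p = 0.00321) on log2(TPM + 1) and 1.89 ± 0.23 on recovered RPM (limma adjusted p = 0.000256). Stat4 is long (chromosome 1, 52008240 to 52107189, plus strand, 98949 bases), so that the pseudocount of 1 TPM stood for 135 to 180 of its reads. In reads, the libraries held 38 to 88 and 201 to 283. Of the span, 3711 bases, or 3.75%, are exonic in GENCODE M21. GENCODE's Gm28177, on the same strand, overlaps 29929 bases of it, and the pseudogene Gm3940, on the opposite strand, 432. Their part in the level of Stat4 was not tested.

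Tbx21, the gene of the type 1 master regulator T-bet, had 0.188, 0.469, 0.218, 0.118 and 0.530 TPM with the bacterium alone and 0.721, 1.74, 1.82 and 0.668 TPM with anti-CTLA-4. The groups did not overlap, and antibody replicates 2 and 3 were more than 2 times as high as antibody replicates 1 and 4. The means were 0.305 ± 0.183 and 1.24 ± 0.626 TPM, a ratio of 4.06, the highest of the 9 genes. The exact two-sided permutation test gave p = 0.00794, the smallest it can give, where 4.07% of the genes below the filter were higher at a p under 0.05. With no expression filter the limma adjusted p was 0.0512. On recovered RPM the log2 fold change was 1.92 ± 0.42 (limma adjusted p = 0.00750), from 41 reads in all with the bacterium alone and 135 with anti-CTLA-4. Tbx21 spans chromosome 11, 97098007 to 97115331, on the minus strand.

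Txk had 0.402, 0.573, 0.509, 0.442 and 0.795 TPM with the bacterium alone and 0.518, 0.880, 1.02 and 0.621 TPM with anti-CTLA-4. The groups overlapped and the exact permutation p was 0.135. On recovered RPM the log2 fold change was 0.50 ± 0.23 (limma adjusted p = 0.154), and without replicate 5 of the bacterium alone the adjusted p was 0.0459. The gene spans chromosome 5, 72695978 to 72752777, on the minus strand.

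Ifng had 0.134, 0.120, 0.260, 0.280 and 2.04 TPM with the bacterium alone and 1.21, 0.988, 1.22 and 1.48 TPM with anti-CTLA-4. Replicate 5 of the bacterium alone was the highest of all 9 libraries, and its other 4 libraries lay below every antibody library. With all libraries the means were 0.566 ± 0.826 and 1.23 ± 0.200 TPM (log2 fold change 0.62 ± 0.28, limma adjusted p = 0.192). In reads this is 1, 1, 2, 2 and 14 against 8, 7, 10 and 13, so the comparison rests on 20 reads in one group and 38 in the other. Without replicate 5 the bacterium alone had 0.199 ± 0.0832 TPM (SD, n = 4). The exact permutation p was then 0.0286, the smallest possible for 4 against 4, and the limma adjusted p was 0.00394 over the same set of tested genes. In the other 8 fits that each left out a library Ifng was not called (limma adjusted p up to 0.335). Ifng spans chromosome 10, 118441046 to 118445894, on the plus strand, 4848 bases. GENCODE's Gm49751, on the same strand, overlaps 2722 of them, and its part in the level of Ifng was not tested.

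The 23 genes of the interferon gamma receptor and its targets summed to 850.7 TPM in replicate 5 and to 288.7 to 611.8 TPM in the other 4 libraries of the bacterium alone, against 520.7 to 935.5 TPM with anti-CTLA-4. The highest of those 4 was also in the antibody range. The T cell gene sum of replicate 5, 44.0 TPM, was below the antibody range of 73.5 to 94.9 TPM.

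**Figure D2:**
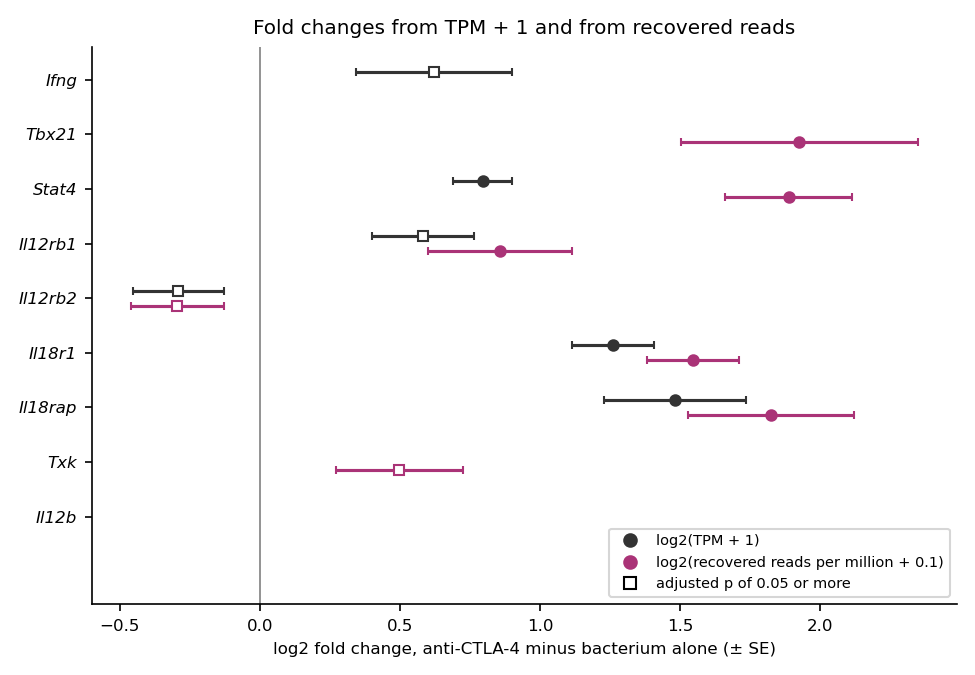
Log2 fold change of anti-CTLA-4 against the bacterium alone (± SE) for the 9 genes, from log2(TPM + 1) in black and from log2(recovered RPM + 0.1) in purple; open squares have a limma adjusted p of 0.05 or more, and a missing point means that the gene was below the filter of that fit. Stat4 moves from 0.79 to 1.89 between the scales, while Il12rb2 stays at -0.29.

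Among the 9 genes, 7 passed the filter of the fit on recovered reads and 5 rose (Tbx21, Stat4, Il12rb1, Il18r1 and Il18rap), where 11.1% of 16500 tested genes rose. Ifng and Il12b were too low in reads for that fit.

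By level, the order with the bacterium alone was Il12rb2 at 7.90 TPM, then Il18rap at 3.15 and Il18r1 at 3.10, Il12rb1 at 2.02, Ifng at 0.566, Txk at 0.544, Stat4 at 0.410, Tbx21 at 0.305 and Il12b at 0.158. With anti-CTLA-4 it was Il18rap at 10.1, Il18r1 at 8.83, Il12rb2 at 6.18, Il12rb1 at 3.39, Stat4 at 1.44, Tbx21 at 1.24, Ifng at 1.23, Txk at 0.761 and Il12b at 0.225 TPM. Most neighbours in either order had overlapping libraries. The exceptions were Il12rb2 above Il18rap with the bacterium alone, and with anti-CTLA-4 Il12rb2 above Il12rb1, Il12rb1 above Stat4 and Txk above Il12b. These levels are per base of gene span.

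To set the 9 genes against the amount of T cell RNA, each was divided by the summed TPM of the 13 T cell genes, which was 40.9 ± 4.17 TPM with the bacterium alone and 82.4 ± 9.55 TPM with anti-CTLA-4, 2.01 times as high (exact two-sided permutation p = 0.00794). The T cell genes were themselves uneven, with ratios of the group means from 1.22 (Cd247) to 4.99 (Cd6), and Cd2, Cd6, Lck and Cd3d had larger ratios than the 2.85 of Il18r1. Il18r1 rose relative to the T cell genes, from 7.51% ± 0.875 to 10.7% ± 0.945 of their sum (exact permutation p = 0.00794), with no overlap between groups. Stat4 rose from 0.987% ± 0.263 to 1.75% ± 0.165 (exact permutation p = 0.0159, no overlap). Subtracting the mean log2(TPM + 1) of the T cell genes in place of the ratio turned its difference to -0.078. The pseudocount of 1 TPM flattens Stat4, whose mean with the bacterium alone, 0.410 TPM, was below that of each T cell gene. The subtraction therefore cannot say whether Stat4 rose beyond the T cell genes. Il18rap went from 7.51% ± 3.31 to 12.2% ± 1.47 (exact permutation p = 0.0476), and the call held in only 1 of the 9 tests that each left out a library, the one without replicate 5 of the bacterium alone (exact permutation p up to 0.114 in the others). Tbx21, at 0.722% ± 0.393 and 1.45% ± 0.614, had overlapping groups (exact permutation p = 0.0794).

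Il12rb2 fell relative to the T cell genes, from 19.4% ± 5.53 to 7.57% ± 1.37 (exact permutation p = 0.00794), again with no overlap. The T cell gene sum was itself 2.01 times as high, so a gene with unchanged TPM would also fall in this ratio. On TPM Il12rb2 was not called (limma adjusted p = 0.290), and its overlap with Serbp1 touches this ratio too. Txk, at 1.32% ± 0.297 and 0.910% ± 0.186 (exact permutation p = 0.0397), lost its call in 8 of the 9 tests that each left out a library. Il12rb1, at 4.85% ± 1.65 and 4.15% ± 0.541 (exact permutation p = 0.595), Ifng, at 1.33% ± 1.86 and 1.51% ± 0.375 (exact permutation p = 0.254), and Il12b, at 0.381% ± 0.206 and 0.271% ± 0.181 (exact permutation p = 0.444), were not called. Without replicate 5 of the bacterium alone the Ifng ratio was higher with anti-CTLA-4 by 1.68 on the log2 scale (exact permutation p = 0.0286). These 9 p-values are not adjusted. The list of 13 genes cannot say which T cells, or which other lymphocytes, hold the 9 genes.

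**Figure D3:**
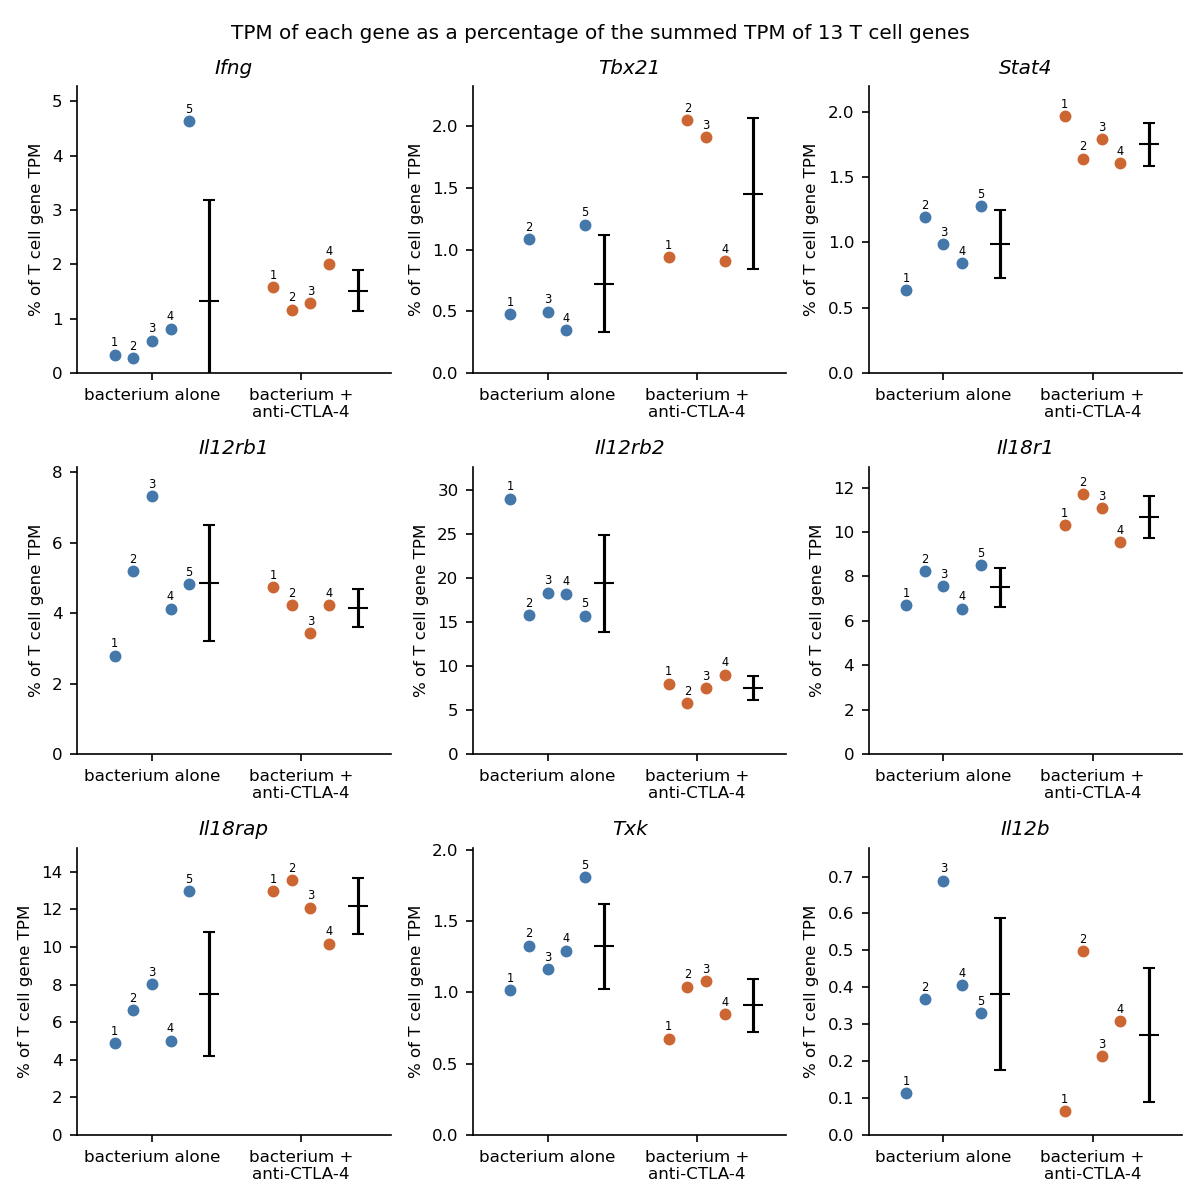
TPM of each of the 9 genes as a percentage of the summed TPM of 13 T cell genes, per library (numbers mark the replicates), with the mean ± SD beside each group (n = 5 and n = 4; the lower bar of Ifng runs below 0 and is not drawn there). Il18r1 and Stat4 sit higher with anti-CTLA-4 without overlap, and Il12rb2 sits lower.

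Of 15 genes that carry signals below these receptors, all were tested and 2 rose, Irak4 and Jak2. Irak4, the kinase that the interleukin-18 receptor uses through MyD88, rose from 7.04 ± 0.538 to 9.68 ± 0.369 TPM (limma adjusted p = 0.00524). Jak2, a kinase of the interleukin-12 and interferon gamma receptors, rose by 0.34 ± 0.07 on the log2 scale, to 16.7 ± 1.31 TPM (limma adjusted p = 0.0173). The feedback inhibitor Socs3 was 45.4 ± 18.3 and 80.7 ± 17.4 TPM (limma adjusted p = 0.0598), and without replicate 5 of the bacterium alone its limma adjusted p was 0.0103. Socs3 was called in 2 of the 9 fits that each left out a library (limma adjusted p up to 0.145).

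Of 21 other genes of the type 1 program, 18 were tested, 11 rose and none fell, with a median log2 fold change of 0.75. Fasl, a death ligand of killer lymphocytes, rose from 0.338 ± 0.213 to 1.98 ± 0.258 TPM (log2 fold change 1.17 ± 0.13, limma adjusted p = 0.00220). Nkg7, a cytotoxic granule protein, rose by 1.40 ± 0.16 (limma adjusted p = 0.00235), the chemokine receptor Cxcr3 by 1.55 ± 0.22 (limma adjusted p = 0.00372), and Runx3, a partner of T-bet, by 0.51 ± 0.08 (limma adjusted p = 0.00454). Fasl passed the expression filter through the antibody group. The list holds genes that other cells also express, such as Id2 and Zeb2.

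Of the 23 genes of the interferon gamma receptor and its targets, 21 were tested and 3 rose: Ciita, Irf8 and Ifngr1. All 21 had a positive log2 fold change, the smallest 0.0013, with a median of 0.66 against -0.014 over all tested genes, but the spread between libraries was wide. Ciita, the switch for MHC class II genes, rose from 10.3 ± 1.80 to 17.2 ± 2.83 TPM (limma adjusted p = 0.0128). Irf8 rose from 8.10 ± 1.17 to 13.3 ± 2.36 TPM (limma adjusted p = 0.0148). Ifngr1, the binding chain of the interferon gamma receptor, rose from 52.0 ± 6.85 to 70.4 ± 5.39 TPM (limma adjusted p = 0.0246), a call lost without anti-CTLA-4 replicate 1, 3 or 4. Its partner Ifngr2 was 20.0 ± 2.19 and 24.4 ± 1.92 TPM (limma adjusted p = 0.0780). The chemokine gene Cxcl9, a common readout of interferon gamma, was 36.5 ± 26.0 and 48.6 ± 7.58 TPM (limma adjusted p = 0.397). Without replicate 5 of the bacterium alone, 5 of the 21 rose.

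Of 14 genes of the type 2 and type 17 counterparts, 10 were tested, 1 rose and 1 fell. Rora, a type 17 factor that keratinocytes also express, fell from 81.9 ± 6.89 to 59.7 ± 5.87 TPM (limma adjusted p = 0.0112). Ccr6 rose from 1.52 ± 0.525 to 2.76 ± 0.431 TPM (limma adjusted p = 0.0381), a call kept in 2 of 9 fits that each left out a library. Il4ra was 19.6 ± 3.34 and 32.2 ± 8.84 TPM (limma adjusted p = 0.0504), and Il1rl1, the interleukin-33 receptor, was 2.73 ± 0.501 and 3.92 ± 0.707 TPM (limma adjusted p = 0.0824). Il17a, Il17f, Il22 and Il5 lay below the filter.

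**Figure D4:**
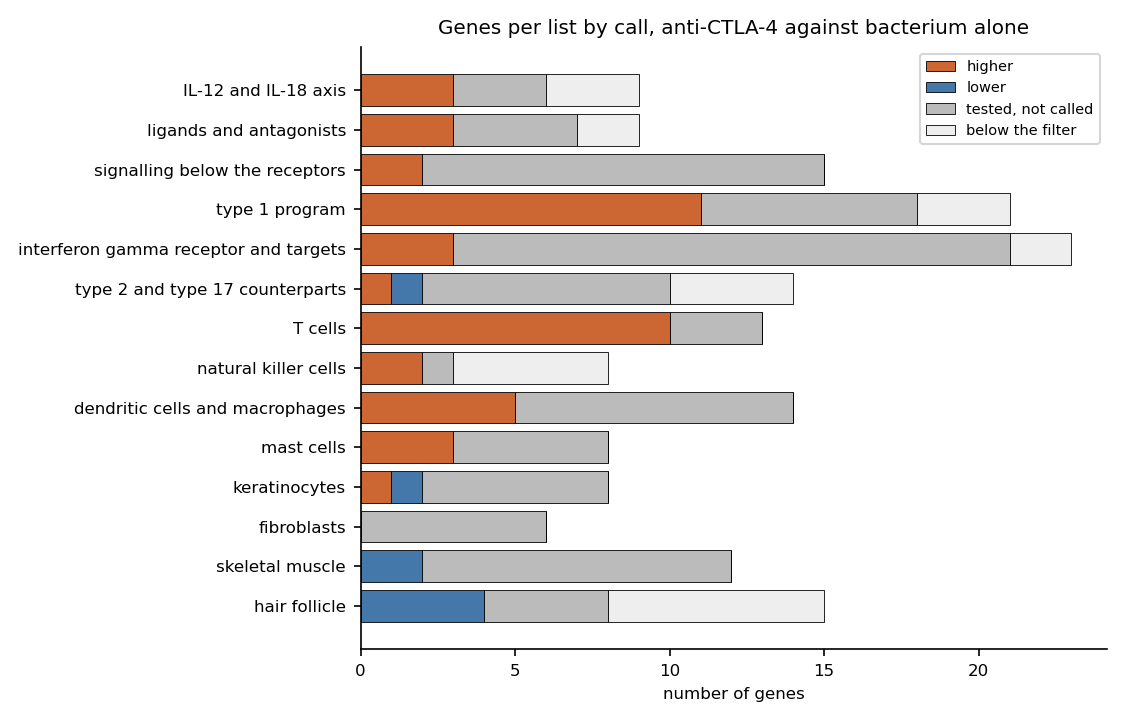
Number of genes in each list that rose, fell or were tested and not called with anti-CTLA-4 (limma adjusted p under 0.05), or lay below the expression filter. T cell genes (10 of 13 tested) and the type 1 program (11 of 18 tested) hold the largest numbers of calls upward. Fibroblast, skeletal muscle and hair follicle genes hold none upward. Fibroblast genes hold none downward either, skeletal muscle genes 2 and hair follicle genes 4.

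Cells other than T cells can carry these genes. Of 8 natural killer cell genes, 3 were tested and 2 rose (Klrk1, and Gzma, which passed the filter only through the antibody libraries), and the list summed to 9.01 to 14.5 TPM with the bacterium alone and 19.2 to 27.0 TPM with anti-CTLA-4. Klrk1, at 6.44 ± 1.63 and 12.6 ± 2.18 TPM, and Klrd1, at 4.16 ± 0.83 and 6.64 ± 2.33 TPM, had the highest levels in the list. Ncr1, the defining receptor gene of natural killer cells, lay below the filter at 0.479 ± 0.379 and 0.489 ± 0.0505 TPM. Klrb1c, Klre1, Eomes and Klra8 also lay below it with overlapping groups, and Klre1 had a lower mean with anti-CTLA-4. Of 14 dendritic cell and macrophage genes, 5 rose (Batf3, Itgam, Adgre1, Ly6c2 and Ccr2). The list summed to 99.4 to 147.6 TPM with the bacterium alone and 201.1 to 277.6 TPM with anti-CTLA-4. Ccr2 alone had means of 47.4 ± 12.3 and 129.4 ± 15.5 TPM, the largest difference in TPM in the list. On the log2 scale Ly6c2 changed most, by 2.16 ± 0.55, against 1.46 ± 0.18 for Ccr2. The dendritic cell genes Flt3, Zbtb46, Xcr1, Clec9a, Cd209a and Ccr7 were not called, and Zbtb46 and Cd209a had lower means with anti-CTLA-4. Of 8 mast cell genes, 3 rose (Cpa3, Cma1 and Mcpt4), with sums of 163.0 to 234.2 and 273.3 to 282.3 TPM. Between 0 and 2 mast cell genes rose in the fits that each left out a library. None rose when the library dropped was antibody replicate 3, antibody replicate 4 or replicate 5 of the bacterium alone. No gene of these 3 lists was at 0 in every library. The part of these cells in the levels of the 9 genes was not tested.

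Within groups, the 9 genes were compared by Pearson's r of their deviations from the group means over the 9 libraries, given as a description. The interleukin-18 receptor chains moved together (r = 0.84), as did Tbx21 with Txk (0.91) and with Il18r1 (0.90), and Stat4 with Il18r1 (0.84) and Il18rap (0.83). Il12rb2 had a negative r with each of the other 8 genes, from -0.16 to -0.46. Against the mean of the T cell genes, r was 0.93 for Il18r1, 0.81 for Tbx21, 0.75 for Stat4, 0.69 for Il18rap, 0.15 for Il12rb2 and 0.11 for Ifng. The libraries share these genes' depth and total, and a single library can set r. Ifng and Il18rap had r = 0.67 with all libraries and -0.42 without replicate 5 of the bacterium alone.

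**Figure D5:**
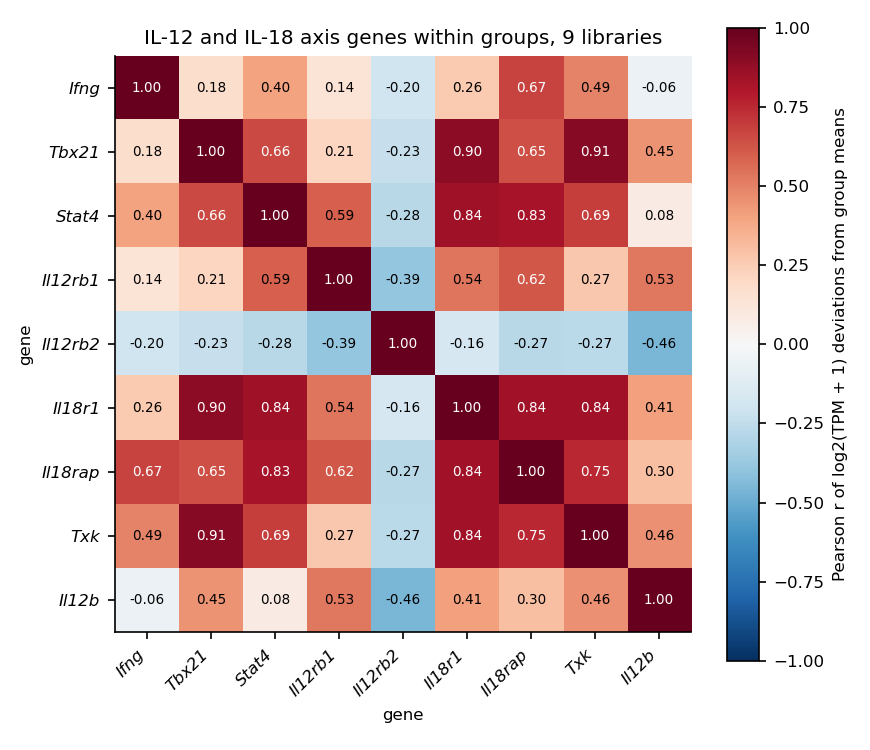
Pearson's r between the 9 genes of log2(TPM + 1) deviations from the group means over 9 libraries, from blue (-1) through white (0) to red (1). Il18r1, Il18rap, Stat4, Tbx21 and Txk form a block with r from 0.65 to 0.91, and the row of Il12rb2 is negative throughout.

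For each tested gene, the most similar of 13647 protein-coding genes by this r were named. Il18r1 was nearest to H2-L (0.96), Fyb (0.96) and the leukocyte gene Ptprc (0.96), and Il18rap to Fgr (0.97), Sp110 (0.97) and Calhm6 (0.96). Stat4 was nearest to Mmp25 (0.96), Slc11a1 (0.94) and Nrros (0.94), and Il12rb1 to the Fc receptor gene Fcgr3 (0.98), Crlf2 (0.96) and Pirb (0.96). Il12rb2 was nearest to Itprip (0.97), Fbxl19 (0.97) and Pld2 (0.95). Ifng was nearest to Cd86 (0.97), Cd69 (0.96) and Ifi208 (0.95), and without replicate 5 of the bacterium alone these became 0.77, 0.24 and 0.63. No p is given, since these are the highest of many values.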

How the data were processed

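RNA sequencing of 9 mouse ear skin libraries was analysed. Per the labels' protocols, 500 ng of total RNA from a dissected region of about 1 mm was used. The submitters' processing notes name STAR, HOMER, DESeq2 and mm10. The version and role of each tool were not given in the sources used here. The authors deposited TPM per gene and library, rounded to 3 decimals, with gene positions. TPM multiplied by gene span gave whole multiples of 1 constant per library for 100% of low values (8998 to 10081 per library, under 200 reads, within 0.1 read), against 19.1% to 20.5% with spans shuffled. Genes enclosing another gene had at least its reads in 220 of 220 opposite-strand and 78 of 78 same-strand pairs, so reads appear to be counted over the whole span on either strand. A gene's fold change does not depend on its span, but the effect of the pseudocount does.

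Groups and replicate numbers came from the sample titles. limma 3.58.1 (R 4.3.3) was run on log2(TPM + 1) with a trended variance and no covariate, keeping genes that reached 1 TPM in 4 or more libraries, with Benjamini-Hochberg adjustment and a threshold of 0.05. Tests were two-sided. Single values and ratios used an exact permutation test (126 arrangements). After the TPM fit was seen, limma was also run on log2(recovered RPM + 0.1), an alternative chosen after seeing the data. Scripts were tested on simulated data. The 9 genes and the lists were chosen with earlier results of these data known. Named beyond the 9 genes are up to 4 tested genes with the smallest p of each pathway list and the 3 most similar genes; 1 gene that this rule names is not reported here. Il18, Il12a, Ncr1, Cxcl9, Serbp1 and the genes named from cell type lists were added after their values were seen. Alternatives were other pseudocounts, filters, scalings and variance settings, covariates, a replicate block and leaving out each library.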

Additional observations from a re-analysis of the deposited data

Results flagged for a closer look

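In 40 checks of a group for a library far from the others, 4 stood out, where chance gives about 1 in 20. Ifng was 2.04 TPM in replicate 5 of the bacterium alone, against 0.120 to 0.280 TPM in the other 4. Relative to the T cell genes it was 4.63% there, against 0.278% to 0.819%. Replicate 1 of the bacterium alone held the others: Il12rb2 was 29.1% of the T cell gene sum, against 15.7% to 18.3% in the other 4, and the ratio of Il12rb2 to Il12rb1 was 10.4, against 2.51 to 4.41.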

How the results depend on the processing

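The calls of Stat4, Il18r1 and Il18rap held in each fit that left out 1 library, and between 3 and 4 of the 9 genes rose in those fits. On recovered RPM 5 of the 9 rose, and 6 when replicate 5 of the bacterium alone was also left out. None of the 9 was called with skeletal muscle genes or with T cell genes as a covariate (0 in both). The cause was not tested. Over all genes 1828 were called (1124 higher, 704 lower), against 1 with skeletal muscle genes (2309 at an unadjusted p under 0.05), 168 with hair follicle genes and 0 with T cell genes (443 at an unadjusted p under 0.05). Other counts were 2746 with quantile normalization (1315 higher, 1431 lower), 2615 with a common median (1302 and 1313), 2511 without the 50 most abundant genes in the total (1205 and 1306), 3048 on recovered reads and 2972 on those without replicate 5. Leaving out 1 library gave 1182 to 1759. With the T cell covariate the log2 fold change turned to -0.35 for Il12rb1, -0.21 for Il18r1, -0.50 for Il18rap, 0.062 for Sigirr, -0.31 for Cxcr3, -0.073 for Runx3, -0.48 for Ciita, -0.43 for Irf8 and -0.049 for Ccr6, each at a limma adjusted p of 1.00. The covariate itself separates the groups, at a mean log2(TPM + 1) of 1.70 to 1.99 with the bacterium alone and 2.64 to 2.96 with anti-CTLA-4. With hair follicle genes as a covariate the calls of Stat4, Il18r1, Fasl, Nkg7, Cxcr3 and Runx3 held, and those of Il18rap, Ebi3, Casp1, Il27, Irak4, Jak2, Ciita, Irf8, Ifngr1, Rora and Ccr6 were lost. Of these 11, the log2 fold change was larger in size than without the covariate for Il18rap (1.78), Irf8 (0.82), Ciita (0.80), Ccr6 (0.62), Ifngr1 (0.55), Irak4 (0.42) and Jak2 (0.38), and smaller for the other 4, all with a larger SE.

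Replicate numbers did not pair the libraries: same-numbered libraries had deviations correlated by -0.0086, 0.018, -0.091 and -0.093, and none correlated best with its own number. With the replicate number as a block, which drops replicate 5 of the bacterium alone, 681 genes were called and 4 of the 9 rose, Ifng among them (limma adjusted p = 0.0140). The block, which leaves fewer residual degrees of freedom, ended the calls of Irak4 (limma adjusted p = 0.0515), Jak2 (0.0622), Ebi3 (0.0694), Il27 (0.0789), Rora (0.0908), Ifngr1 (0.105) and Ccr6 (0.130).

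For Tbx21 with no expression filter, the limma log2 fold change was 0.74 (adjusted p = 0.0512). Subtracting the mean log2(TPM + 1) of the T cell genes in place of a ratio gave -0.25 for Ifng, -0.13 for Tbx21, -0.078 for Stat4 and -0.80 for Il12b. The pseudocount flattens low genes by construction, Ifng, Tbx21 and Stat4 among them. The difference of Il12b, the lowest of the 9, mostly restates the T cell mean. Dividing by Cd3e alone gave 0.077 for Il12rb1 and -0.29 for Txk. Leaving out 1 library moved the log2 ratio to the T cell genes between 0.66 and 1.68 for Ifng, -0.35 and 0.0012 for Il12rb1 (0.0012 without replicate 3 of the bacterium alone), 0.66 and 1.01 for Il18rap and -0.63 and -0.40 for Txk. It moved the log2 ratio of Il18rap to Il18r1 between 0.19 and 0.46, and that of Il12rb2 to Il12rb1 between -1.35 and -0.84. Ifng and Il12b, with at most 14 reads in a library, are limited by depth.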
